A study of Homo sapiens with 46 samples.

Results

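The transcript studied here is ENST00000360541.10 of ETF1, the gene of the translation release factor eRF1. It is 1 of 227264 transcripts listed in the count files, was chosen by its ID, and was followed through all 46 libraries of the study. RefSeq places ETF1 on chromosome 5, from 138506095 to 138543236, on the minus strand of GRCh38.p14. The coding length given for the transcript is 438 codons in the footprint files and 428 in the RNA-seq files. The files hold transcript IDs without gene names, so the pairing of this ID with ETF1 rests on the way the transcript was chosen.

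eRF1 recognises the stop codons when they enter the decoding site of the ribosome. Together with the GTPase eRF3 it brings a conserved GGQ motif to the peptidyl transferase centre, where the finished protein is released, and ABCE1 then splits the ribosome. In this study eRF1 is also the bait, so its own transcript is both endogenous and, in the tagged lines, overexpressed.

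Every library came from the line HEK293 Flp-In T-REx, which derives from human embryonic kidney and has a site for inducible transgenes. In the first arm, stable lines overexpressed eRF1 with a streptavidin-binding peptide (SBP), as the mutant labelled SBP-eRF1-AAQ or as wild type (WT), after 48 h in 0.2 µg/ml tetracycline. AAQ is the usual name for eRF1 with a changed GGQ motif. Naive cells, the reference of this arm, carry no tagged protein, and no tetracycline is recorded for them. Footprints were taken of lone ribosomes (monosomes) and of 2 ribosomes in contact (disomes), before pulldown (input) and after it. AAQ and WT each have 2 libraries per kind, and naive cells have 1.

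The second arm used siRNA at 75 nM for 72 h and at 30 nM for another 24 h, against ASCC3 and 4EHP together, ASCC3, 4EHP or ABCE1, or a control siRNA. ASCC3 is a helicase that takes collided ribosomes apart, and 4EHP is a cap-binding repressor of translation. Monosomes, disomes and, except for ABCE1, RNA-seq were made with 2 libraries a group, except that disomes of the ABCE1 and of the ASCC3 knockdown have 1 library each. Whether 2 libraries of a group came from separate cultures is not in the labels. The p-values therefore reflect a spread between libraries that may be technical. The labelled cell line was not checked against marker genes, because the files carry no gene names.

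Levels are given as CPM, a count scaled to the sum of all counts in its library (counts per 1000000). A read in sequence that several listed transcripts share is counted in each of them, so a CPM is a share of listed counts and not of reads. Summed counts ran from 2844500 to 3740853 in monosome inputs and from 656786 to 2365041 in disome inputs. They ran from 20726007 to 48797868 in the tagged monosome pulldowns, against 1291870 in the naive one, and disome pulldowns held 50623 (naive) to 1895357. In the knockdown arm the sums were 4677576 to 29096832 for monosomes, 1381905 to 5495262 for disomes and 34097654 to 56402314 for RNA-seq. Intervals given for single libraries are 95% exact intervals and cover counting error alone.

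The first question was how far tagged expression raised ETF1 over its endogenous level. In monosome inputs ETF1 stood at 288 and 329 CPM in AAQ cells, at 295 and 308 CPM in WT cells, and at 60.0 CPM (52.1 to 68.7) in naive cells. All 4 tagged libraries lay far above the naive one, and the tagged lines overlapped each other. The counts behind these levels were 960 and 1098 for AAQ, 838 and 1153 for WT, and 209 for naive cells.

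The mean ETF1 level in monosome inputs was 309 ± 29.2 CPM in AAQ cells and 301 ± 9.63 CPM in WT cells (SD, n = 2 each), which is 5.15 and 5.03 times the single naive value. Of the AAQ mean 80.6%, and of the WT mean 80.1%, lay above the naive level. Tagged and endogenous reads cannot be told apart in these counts, so these shares equal the tagged part if the endogenous transcript was translated as in naive cells, and that was not tested.

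**Figure D1:**
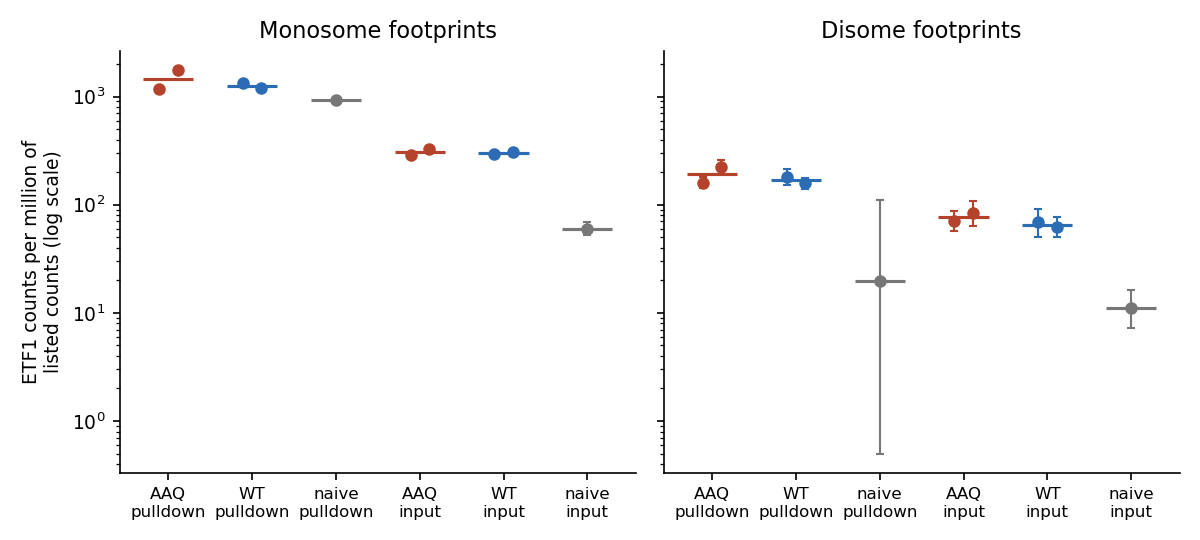
ETF1 level in every library of the tagged arm, in CPM on a log axis, for monosome and disome inputs and pulldowns; points are libraries, vertical bars are 95% counting intervals and horizontal lines are group means. The tagged inputs lie above the naive input in both kinds of footprint, whereas the naive monosome pulldown, at 932 CPM, lies close to the tagged ones.

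Two-sided quasi-likelihood F tests (edgeR) were run over all features, with p-values adjusted by Benjamini-Hochberg, and a feature was called at an adjusted p under 0.05. Features are transcripts, 1 for each set found to share reads. Transcripts under 500 counts over all libraries were joined only if their counts were identical in every library. ETF1 rose in AAQ inputs by 2.48 on the log2 scale over the naive input (SE 0.34, adjusted p = 0.0146), in a comparison where 3.82% of 19965 features were called. That call was lost without AAQ input replicate 1 (adjusted p = 0.127) or replicate 2 (0.183), with log2 values of 2.57 and 2.37, and its alternatives spanned 2.61e-82 to 0.183.

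In WT inputs the difference from naive was 2.33 (SE 0.34), nearly as large, with an unadjusted p of 0.000466 against 0.000326 for AAQ. The adjustment depends on all features tested, of which 1578 for WT and 3111 for AAQ had an unadjusted p under 0.05. The WT difference had an adjusted p of 0.143, with 0.0902% of features called. With a fit of the compared groups alone, its adjusted p was 3.94e-47, and over all alternatives it ran from 3.94e-47 to 0.532. The size of the difference hardly moved, between 2.31 and 2.34 when a WT library was left out. The lone naive library was assumed to vary like the other groups.

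Among 2273 features with at least 100 counts in the naive monosome input, ETF1 had the highest ratio of tagged to naive input. The ratio, over representative features, was 5.20 in AAQ cells and 5.03 in WT cells, against 2.51 and 1.59 for the next feature and medians close to 1. Among all 19965 features tested, with no such cut, ETF1 ranked 78 for AAQ and 95 for WT by fitted log2 change. Per codon, ETF1 ranked 1234 and 1059 among listed transcripts in the AAQ inputs, 1090 and 1022 in the WT inputs, and 5341 in the naive input.

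**Figure D2:**
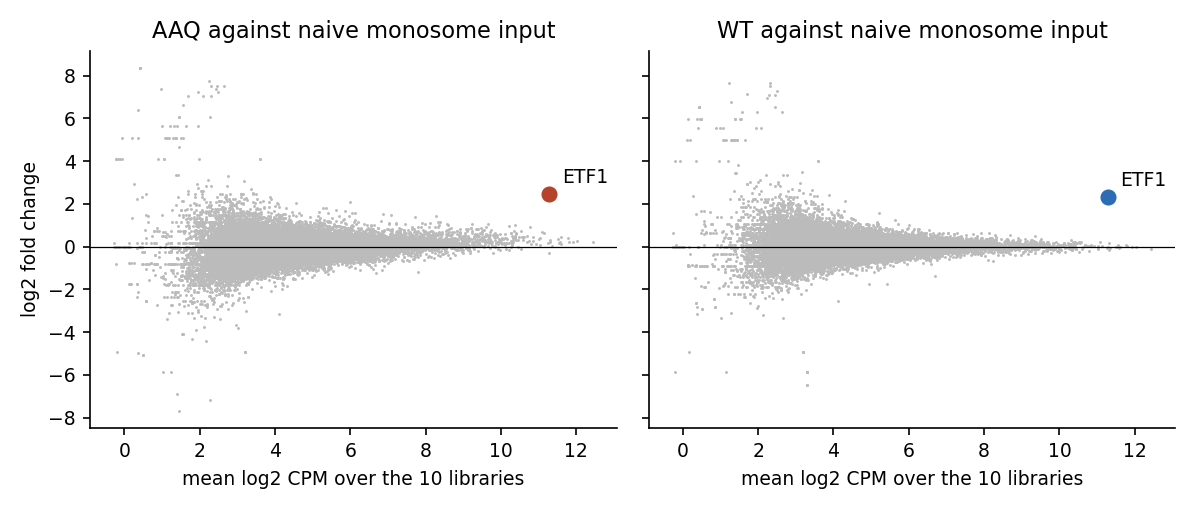
Log2 fold change of tagged over naive monosome input against average log2 CPM for each feature tested, with ETF1 marked. ETF1 stands at 2.48 for AAQ and 2.33 for WT, at ranks 78 and 95 of 19965 features by fold change. The average is over all monosome libraries of the arm, pulldowns included, where ETF1 is high. Features beside it on that axis need not have a like level in inputs.

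Disome inputs gave the same picture at lower depth. ETF1 stood at 71.3 and 83.6 CPM in AAQ cells, 68.5 and 62.1 CPM in WT cells and 11.0 CPM (7.18 to 16.1) in naive cells, from 88, 55, 45, 91 and 26 counts. The naive library lay below all 4 tagged libraries, and the AAQ values lay above the WT values. ETF1 rose by 2.91 in AAQ over naive cells (SE 0.30, adjusted p = 3.43e-19; 7.49% of 12367 features called) and by 2.51 in WT over naive cells (SE 0.31, adjusted p = 5.50e-12; 0.485% called).

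The ratios of mean disome input levels to naive were 7.05 for AAQ and 5.94 for WT. Among 8160 features with at least 20 counts in the naive disome input, ETF1 ranked 14 by this ratio in AAQ cells and 1 in WT cells. By fitted log2 change it ranked 90 for AAQ and 25 for WT among all 12367 features tested. The rise in disomes was not separable from that in monosomes: the log2 change in disomes minus that in monosomes was 0.36 for AAQ over naive (SE 0.39, adjusted p = 0.858; 1.38% of 20749 called) and 0.18 for WT over naive (SE 0.40, adjusted p = 0.979; 0.111% called).

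The mutant and the wild-type bait could be compared directly, since both lines have 2 libraries. In monosome inputs AAQ and WT differed by 0.15 on the log2 scale (SE 0.22, adjusted p = 0.838; 3.46% called). In disome inputs the difference was 0.40 (SE 0.21, adjusted p = 0.342; 5.9% called). Neither passed the threshold, so a difference in ETF1 translation between the tagged lines was not detected in inputs, which does not show that the lines are alike.

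The second question was whether ETF1 footprints were enriched in pulldowns over inputs. By what contact such footprints came to be pulled down was not tested. In monosome pulldowns ETF1 reached 1162 and 1742 CPM in AAQ cells and 1328 and 1195 CPM in WT cells, from 56702, 36111, 29399 and 28176 counts. It was among the most counted of 100283 transcripts listed in footprint files, at ranks 18 and 1 in AAQ and 3 and 4 in WT pulldowns. Per codon its ranks were 139 and 34 in AAQ and 61 and 84 in WT pulldowns.

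The pulldown means were 1452 ± 410 CPM for AAQ and 1262 ± 94.5 CPM for WT (SD, n = 2 each), 4.70 and 4.19 times the mean of the matching inputs. All pulldown libraries lay above all input libraries. ETF1 rose by 2.26 in AAQ pulldown over AAQ input (SE 0.21, adjusted p = 0.00183; 4.75% called) and by 2.08 in WT pulldown over WT input (SE 0.21, adjusted p = 0.00191; 6.86% called). The log2 difference of these 2 enrichments, AAQ minus WT, was 0.18 (SE 0.29, adjusted p = 0.993; 0.025% called).

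The AAQ enrichment was no longer called without AAQ input replicate 1 (2.16, adjusted p = 0.149) or replicate 2 (2.36, adjusted p = 0.0794), nor in a fit of the compared groups alone (2.26, adjusted p = 0.172), with alternatives from 3.88e-179 to 0.172. The WT enrichment was no longer called without WT input replicate 1 (2.06, adjusted p = 0.121) or replicate 2 (2.10, adjusted p = 0.142), with alternatives from 1.50e-36 to 0.142.

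Ranked by pulldown over input among features with at least 100 input counts, ETF1 came first of 4275 in AAQ cells, at 4.71 on the scale of representative features, and first of 4521 in WT cells, at 4.21. The medians of all these features were 1.01 and 1.02. Among all 19965 features tested, ETF1 ranked 33 for AAQ and 40 for WT by fitted log2 change.

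The naive pulldown was the study's library without a bait, and ETF1 was high in it. It held 1204 ETF1 counts, or 932 CPM (880 to 986), at rank 23 by count and 155 per codon, against 60.0 CPM in the naive input. The ratio was 15.5 (13.4 to 18.1 by counting error), larger than in either tagged line, and 3 of 2273 features, ETF1 among them, exceeded a ratio of 10. The median ratio in naive cells was 0.968. Naive cells have no tagged eRF1, and the pulldown library was the shallowest of the monosome libraries. Whether reads of the tagged libraries entered it was not tested, so its ETF1 level may not be that of naive cells, and each comparison with it carries that limit.

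Set against the naive pulldown, the monosome pulldowns differed by 0.75 for AAQ (SE 0.25, adjusted p = 0.340; 2.24% called) and 0.42 for WT (SE 0.25, adjusted p = 0.811; 0.997% called). The AAQ difference was 1.01 without AAQ pulldown replicate 1 and 0.43 without replicate 2. Each of these sets 1 AAQ library against 1 naive library, with the spread taken from other groups. Over the settings that left out no library its adjusted p ran from 0.00327 to 0.734. The WT difference passed in a fit of the compared groups alone (0.50, adjusted p = 3.49e-07), with alternatives up to 0.961.

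Enrichment minus naive enrichment was negative for both, at −1.73 for AAQ (SE 0.43, adjusted p = 0.381; 0.481% called) and −1.90 for WT (SE 0.43, adjusted p = 0.354; 0.436% called), with unadjusted p of 0.00651 and 0.00408. For AAQ the difference was −1.46 without AAQ pulldown replicate 1 and −2.04 without replicate 2. For WT it was −1.99 without WT pulldown replicate 1 and −1.82 without replicate 2. Each of these fits has 1 tagged pulldown library and takes its spread from other groups. Over the settings that left out no library, adjusted p ran from 2.08e-06 to 0.753 for AAQ and from 8.85e-28 to 0.556 for WT. As ratios of pulldown to input, 4.70 in AAQ and 4.19 in WT stood against 15.5 in the naive libraries, where the value rests on that single pulldown library.

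Disome pulldowns held 159 and 225 CPM of ETF1 in AAQ cells and 182 and 158 CPM in WT cells, from 302, 180, 136 and 291 counts. The naive disome pulldown held 1 ETF1 count in a library of 50623 counts, or 19.8 CPM (0.50 to 110). The tagged libraries overlapped each other and all lay above the naive value, whose interval is wide.

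ETF1 rose by 1.43 in AAQ disome pulldown over input (SE 0.18, adjusted p = 9.13e-12; 2.89% called) and by 1.33 in WT disome pulldown over input (SE 0.19, adjusted p = 1.27e-09; 1.11% called). The ratios of means were 2.48 and 2.60, below the monosome ratios of the same lines, and the difference of enrichments between AAQ and WT was 0.11 (SE 0.27, adjusted p = 0.996; 0.243% called). The naive ratio of pulldown to input was 1.80 with a counting interval of 0.0438 to 10.9, and with TMM scaling the pulldown, at 30.3, lay below the input, at 34.7, which limits the background in disomes very little.

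The ratio of pooled ETF1 CPM in tagged to naive disome pulldown was 9.06 for AAQ (1.62 to 358) and 8.34 for WT (1.49 to 330). The fitted log2 changes were 4.54 for AAQ (SE 0.77, adjusted p = 5.43e-07; 4.05% called) and 4.04 for WT (SE 0.83, adjusted p = 0.000405; 1.21% called). With 1 naive count these fitted values depend on the settings of the fit and are no bound. By fitted change ETF1 ranked 4448 for AAQ and 4468 for WT among all 12367 features. Among the 423 features at least as abundant on average, ETF1 included, it ranked 5 for AAQ and 2 for WT. That average includes the tagged pulldowns being compared, where ETF1 is high, so these 2 ranks are partly set by the choice of features and support nothing. The median feature was itself shifted on the log2 scale, by 0.99 for WT and slightly more for AAQ. Scaled by total counts, adjusted p was 0.0726 for AAQ and 0.595 for WT, the highest among their alternatives, which reached down to 8.07e-08 and 0.000269. The enrichment minus naive enrichment was 1.63 for AAQ (SE 1.23, adjusted p = 0.569; 0.703% called) and 1.53 for WT (SE 1.24, adjusted p = 0.599; 0.429% called).

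**Figure D3:**
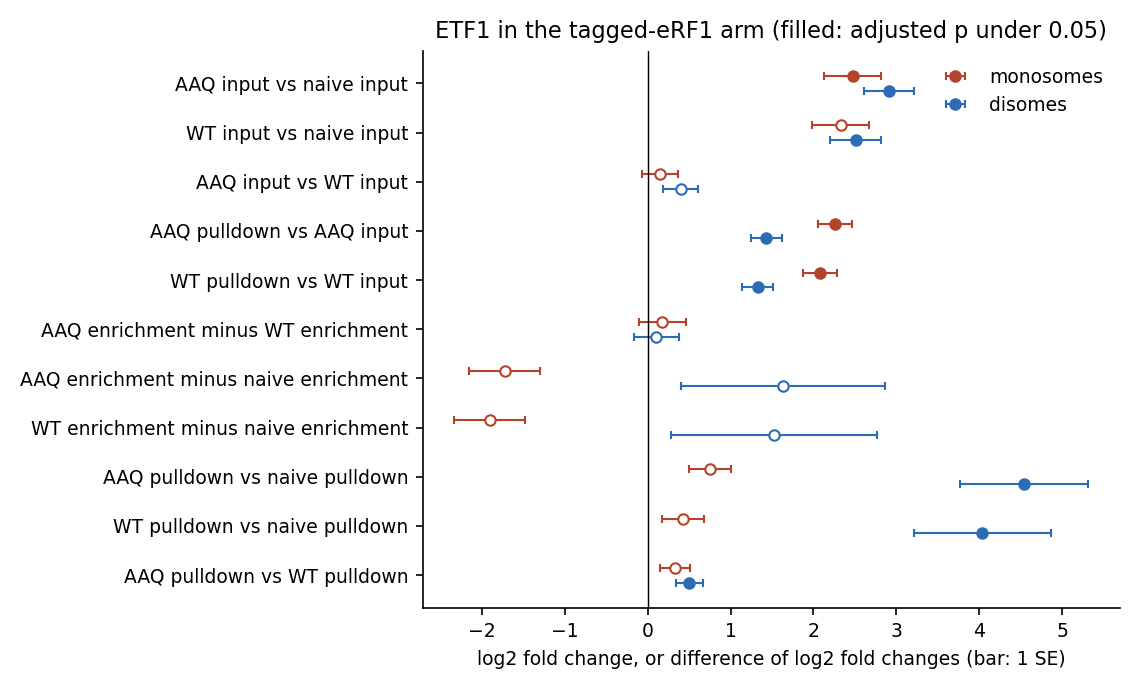
Log2 fold change of ETF1 with its standard error in the comparisons of the tagged arm, for monosomes and disomes; filled points have an adjusted p under 0.05. Pulldown over input is above 0 in both lines, at 2.26 for AAQ and 2.08 for WT in monosomes. Enrichment minus naive enrichment is −1.73 for AAQ and −1.90 for WT in monosomes, and 1.63 and 1.53 in disomes. None of these differences from naive enrichment is called, and in each kind of footprint they rest on a single naive pulldown library.

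Between the pulldowns themselves, ETF1 rose in AAQ over WT disomes by 0.50 (SE 0.16, adjusted p = 0.0177; 11.6% called), although the CPM values of the lines overlapped. The call was lost without AAQ replicate 2 (0.22, adjusted p = 0.582), WT replicate 1 (0.53, adjusted p = 0.0584) or WT replicate 2 (0.38, adjusted p = 0.339). Scaled by total counts the difference was 0.19, where the median feature moved by −0.32, and adjusted p over the alternatives ran from 0.00153 to 0.588.

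In monosome pulldowns AAQ and WT differed by 0.33 (SE 0.18, adjusted p = 0.288; 21.7% called). With 1 AAQ library left, the difference was 0.59 without AAQ replicate 1 and 0.0078 without replicate 2. Over settings other than leaving out a library, adjusted p ran from 0.0473 to 0.619. The change between AAQ and WT pulldown in disomes minus that in monosomes was 0.05 (SE 0.18, adjusted p = 0.946; 4.87% called).

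Disome CPM as a ratio to monosome CPM was 0.251 in AAQ inputs, 0.217 in WT inputs and 0.183 in the naive input. In pulldowns it was 0.132 for AAQ and 0.135 for WT. These are ratios of shares in separate libraries and not counts of collided ribosomes. The AAQ and WT inputs differed in it by 0.19 on the log2 scale (SE 0.24, adjusted p = 0.918; 1.26% called).

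The files give no positions within a transcript, but transcripts listed next to ETF1 share its reads in part and serve as a coarse ruler. Of 5 such transcripts, within 4 lines of ETF1, none exceeded its count in any library. Their lengths are 405, 424, 96, 208 and 120 codons, and over all libraries they held 97.7%, 97.9%, 10.0%, 43.0% and 22.8% of the ETF1 count. They were picked after their values were seen, and the files do not say which part of the coding sequence each covers.

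The share of ETF1 counts not held by the 405-codon transcript was 1.40% and 0.978% in AAQ monosome pulldowns and 1.31% and 1.46% in WT pulldowns. It was 3.96% and 4.28% in AAQ inputs and 5.97% and 3.21% in WT inputs. The pulldowns did not overlap the inputs. The means were 1.29 ± 0.216% and 4.35 ± 1.17% (SD, n = 4 each), a difference of −3.07 percentage points. The exact two-sided permutation p was 0.0286, the smallest this design allows, and 0.0714 after adjustment over 10 such tests. This test and the tests of shares below treat AAQ and WT libraries as replicates of each other, although each line has only 2 of the 4. They do not pair inputs with pulldowns.

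Naive cells had 16 of 1204 ETF1 counts outside the 405-codon transcript in the pulldown, or 1.33% (0.761 to 2.15, exact binomial), and 18 of 209 in the input, or 8.61% (5.18 to 13.3). The naive pulldown value lies within the range of the tagged pulldowns. With the naive libraries added the difference was −3.91 points (exact two-sided permutation p = 0.00794, adjusted 0.0198, n = 5 each). That test was added after the data were seen and treats AAQ, WT and naive libraries as replicates of each other. It also includes the naive pulldown, and whether reads of the tagged libraries entered that library was not tested.

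The 96-codon transcript held 9.58% of ETF1 counts on average in tagged monosome pulldowns, within 8.86 to 10.6%, and 18.4% in inputs, within 17.0 to 19.1%. The 120-codon transcript held 22.7% and 27.4%. The exact permutation p was 0.0286 for each, again the smallest this design allows, and the adjusted p was 0.0714 (n = 4 each). The 208-codon transcript held 45.2% in pulldowns and 47.6% in inputs, with an adjusted exact permutation p of 0.204 (n = 4 each). In the tagged lines alone, none of these shares passed the threshold after adjustment, where the smallest possible p limits what could pass.

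In disomes the share outside the 405-codon transcript was 6.55 ± 2.57% in tagged pulldowns and 9.40 ± 2.53% in tagged inputs (SD, n = 4 each), an overlap of ranges with an exact permutation p of 0.143, or 0.204 adjusted. Each share rests on 5 to 15 counts.

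**Figure D4:**
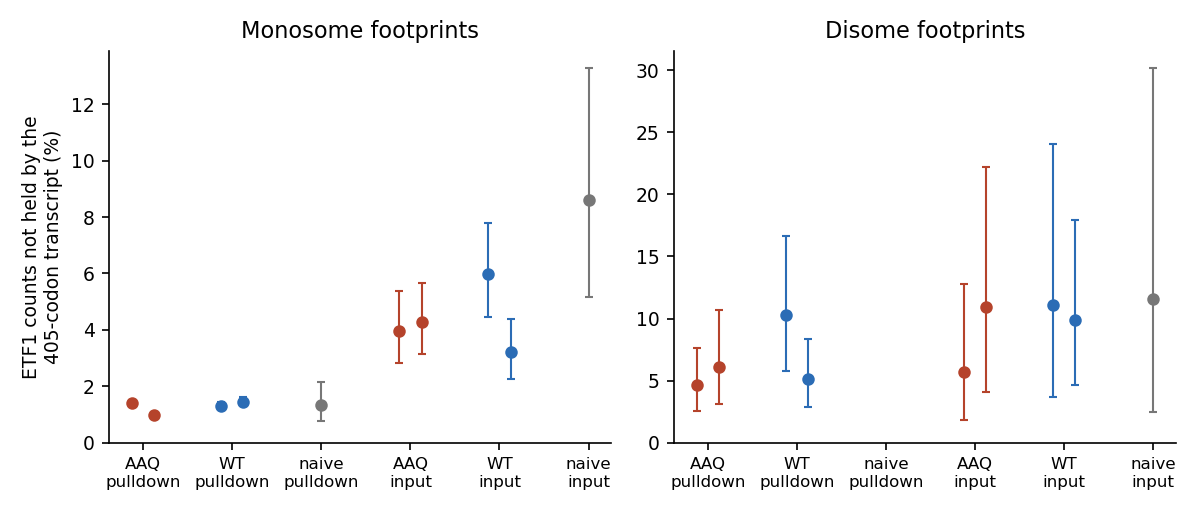
Percentage of ETF1 counts not held by the neighbouring 405-codon transcript in each monosome and disome library of the tagged arm, with exact binomial intervals; the naive disome pulldown, with 1 ETF1 count, is not drawn. The monosome pulldowns, naive included, lie between 0.978% and 1.46%, below the inputs.

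The knockdown arm has no tagged eRF1 and shows the endogenous transcript. Set beside each other across the arms, the naive monosome input stood at 60.0 CPM and the control siRNA cells at 68.5 and 73.5 CPM. In disomes the naive input stood at 11.0 CPM and the control siRNA cells at 37.5 and 43.7 CPM. The arms differ in treatment and were not tested against each other.

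Monosome levels of ETF1 were 62.1 and 60.4 CPM with ASCC3 and 4EHP both knocked down, 60.5 and 61.5 CPM with ASCC3, 65.7 and 63.9 CPM with 4EHP, 71.5 and 64.6 CPM with ABCE1, and 68.5 and 73.5 CPM in control cells. The double knockdown, ASCC3 and 4EHP libraries lay below both control libraries, while ABCE1 overlapped them.

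ETF1 fell by 0.26 on the log2 scale in the double knockdown (SE 0.07, adjusted p = 0.00790), from means of 61.3 ± 1.21 CPM against 71.0 ± 3.49 CPM in control cells (SD, n = 2 each). In that comparison 13.7% of 28386 features were called. The call was lost without double knockdown replicate 2 (−0.24, adjusted p = 0.127) or control replicate 2 (−0.21, adjusted p = 0.135), and the alternatives spanned 0.00143 to 0.135.

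The other monosome differences from control missed the threshold. They were −0.20 for ASCC3 (SE 0.08, adjusted p = 0.117; 5.64% called), −0.12 for 4EHP (SE 0.07, adjusted p = 0.591; 0.807% called) and −0.08 for ABCE1 (SE 0.07, adjusted p = 0.868; 0.074% called). With no filter on low counts the ASCC3 difference was −0.25 and passed (adjusted p = 0.0472), at the low end of alternatives that reached 0.453.

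RNA-seq levels were 98.8 and 107 CPM in the double knockdown, 111 and 108 CPM with ASCC3, 96.2 and 96.02 CPM with 4EHP, and 101 and 99.6 CPM in control cells. The ASCC3 libraries lay above both control libraries and the 4EHP libraries below them. None of the tested differences passed, at −0.06 for the double knockdown (SE 0.10, adjusted p = 0.828; 3.37% of 33295 called), 0.03 for ASCC3 (SE 0.10, adjusted p = 0.920; 2.54% called) and −0.08 for 4EHP (SE 0.10, adjusted p = 0.860; 0.018% called).

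Translational efficiency, tested as the change in monosomes minus that in RNA, differed by −0.22 for the double knockdown (SE 0.13, adjusted p = 0.906; 0.0516% of 34909 called) and −0.27 for ASCC3 (SE 0.14, adjusted p = 0.544; 0.312% called). For 4EHP it was −0.02 (SE 0.14, adjusted p = 1), where edgeR called 0 features, DESeq2 called 1, and 1720 had an unadjusted p under 0.05 by edgeR. Without 4EHP RNA-seq replicate 1, edgeR called 854 features there, and the ETF1 difference was close to 0. The ratio of mean monosome to mean RNA-seq CPM was 0.594 in the double knockdown, 0.558 with ASCC3, 0.674 with 4EHP and 0.706 in control cells. The lower monosome level of the double knockdown was thus not separated from its RNA level by the test.

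**Figure D5:**
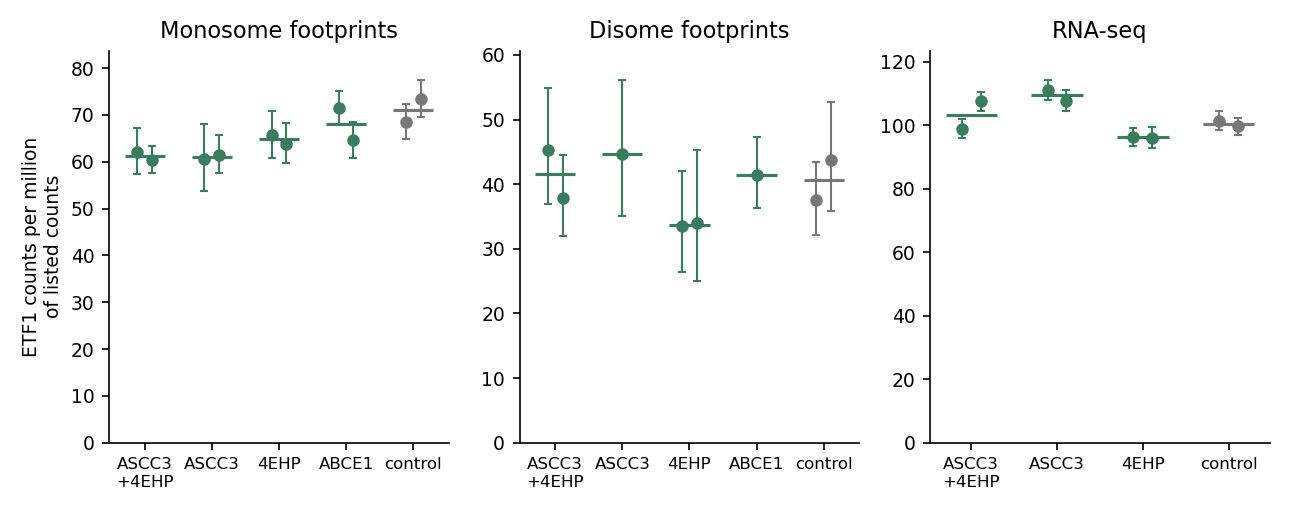
ETF1 level in CPM in every library of the knockdown arm, by assay and siRNA, each point a library with its 95% counting interval and each line a group mean. Monosome values span 60.4 to 73.5 CPM, disome values 33.5 to 45.3 CPM and RNA-seq values 96.02 to 111 CPM.

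Disome levels were 45.3 and 37.9 CPM in the double knockdown, 44.7 CPM in the single ASCC3 library, 33.5 and 34.0 CPM with 4EHP, 41.5 CPM in the single ABCE1 library, and 37.5 and 43.7 CPM in control cells, from 47 to 228 counts each. The 4EHP libraries lay below the control libraries, and the double knockdown overlapped them.

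The disome differences from control were −0.06 for the double knockdown (SE 0.18, adjusted p = 0.892; 7.36% of 12437 called), 0.15 for ASCC3 (SE 0.25, adjusted p = 0.878; 0.667% called), −0.25 for 4EHP (SE 0.20, adjusted p = 0.628; 3.39% called) and 0.05 for ABCE1 (SE 0.21, adjusted p = 0.999; 0.217% called). Disome relative to monosome changes were 0.15 for the double knockdown (SE 0.17, adjusted p = 0.830; 0.422% of 25603 called), 0.25 for ASCC3 (SE 0.23, adjusted p = 0.831; 0.0508% called), −0.20 for 4EHP (SE 0.20, adjusted p = 0.808; 0.504% called) and 0.15 for ABCE1 (SE 0.18, adjusted p = 0.937; 0.082% called). For the lone ASCC3 and ABCE1 libraries the fit takes the spread of the other groups.

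The ratio of mean disome to mean monosome CPM was 0.678 in the double knockdown, 0.733 with ASCC3, 0.521 with 4EHP, 0.610 with ABCE1 and 0.572 in control cells. The share of ETF1 counts outside the 405-codon transcript was 2.26 to 5.28% in the 10 monosome libraries of this arm, 3.15 to 7.30% in the 8 RNA-seq libraries and 0.439 to 8% in the 8 disome libraries.

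By CPM as given here, the highest ETF1 level was in an AAQ monosome pulldown. The lowest were in the naive disome libraries, whose order is not settled: the pulldown holds 1 ETF1 count, and TMM scaling turns the order round, at 30.3 for pulldown and 34.7 for input. The order of CPM by group mean ran, from low to high, from the naive disomes through the knockdown disomes to the naive and knockdown monosomes, with the tagged disome inputs beside these. The RNA-seq libraries, tagged disome pulldowns, tagged monosome inputs, naive monosome pulldown and tagged monosome pulldowns followed. Within a kind of library, neighbours such as AAQ and WT mostly overlapped, as given above.

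For likeness, log2(CPM + 1) was centred within each assay of each arm, which removes differences between monosomes, disomes and RNA-seq. Of 24030 features, those within 40 lines of ETF1 were left out. On that scale the 2 remaining features most like ETF1 over the 46 libraries, by Pearson correlation, were ENST00000530628.2 (133 codons, r = 0.70) and ENST00000331835.10 (166 codons, r = 0.68). None of the remaining features exceeded 0.8. The SD of the centred values was 0.92 for ETF1, against 0.25 and 0.28 for these 2 features. The likeness does not extend to differences between assays, since ENST00000530628.2 was higher in disome than in monosome inputs and ETF1 was lower. The points share libraries and depth, and the correlation is a description.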

How the data were processed

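Ribosome footprints and RNA were sequenced from 46 libraries in 26 groups, grouped and numbered by the labels. Each deposited file lists transcript IDs with their length and a raw count, without normalization or header. STAR 2.7.0a, UMI-tools 1.1.1 and hg38 are named in the submitters' processing notes. How reads were counted, and on which annotation, is not given in the sources used here. The length is the authors' deposited value and was read as codons.

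Levels (CPM) are counts per 1000000 summed counts of a library. For tests, transcripts with at least 500 counts and within 40 lines were joined by replicate differences correlating above 0.7, after removal of 2 components. The one with the most counts represented them. Transcripts with fewer counts were joined only if identical in every library, so some that share reads may have stayed separate. This gave 54011 features from 97742 transcripts with any count, and ETF1 represents its own 6 transcripts. Tests on counts used edgeR 4.0.16 (R 4.3.3, quasi-likelihood F test, TMM, minimum count 10, Benjamini-Hochberg, threshold 0.05, two-sided) in 44 comparisons. Each assay of an arm was fitted with all its groups. For disome relative to monosome and for translational efficiency, both assays were fitted jointly, with their libraries taken as independent. The step that joins transcripts and the edgeR test were tested on simulated data. Permutation tests used scipy 1.17.1.

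DESeq2 1.42.0, total-count scaling, no low-count filter, every transcript, a fit of the compared groups alone, a replicate block and leaving out each library were alternatives. Leaving out 1 of 2 libraries left 1 in that group, so its spread came from the other groups. Replicate numbers were not taken to pair the libraries, since in no assay did the deviations of every pair of groups correlate above 0.1. The transcript and lists were chosen with earlier results of these data known. Named by rule were ETF1 and the 5 features most like it, of which 2 are printed because the files give no gene names. Gene lists and cell markers could not be matched to transcript IDs and were not analysed here.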

Additional observations from a re-analysis of the deposited data

How the results depend on the processing

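Of 44 comparisons, 22 kept their direction and their side of the threshold in every alternative. Among settings other than leaving out a library, 247 of 276 values did so, 8 lost and 17 gained a call and 4 changed sign. Among values with 1 library left out, 165 of 196 did so, 11 lost and 7 gained a call and 13 changed sign. The causes were not tested.

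For monosome inputs, WT over naive was called at 2.33 with DESeq2, 2.35 without a filter and 2.35 with the compared groups alone, and AAQ over naive lost its call at 2.37 with total counts (2.37 to 2.57 with 1 library left out). Leaving out a library gave 1.99 to 2.16 for WT and 1.94 to 2.52 for AAQ pulldown over input, −0.14 to 0.44 for AAQ minus WT enrichment, 0.0078 to 0.59 for AAQ over WT pulldown and 0.43 to 1.01 for AAQ over naive pulldown. AAQ pulldown over input lost its call at 2.26 with the compared groups alone. Calls were gained for WT over naive pulldown at 0.50 with the compared groups alone, and for AAQ over naive pulldown at 0.73 with DESeq2 and 0.90 without a filter. Minus naive enrichment, AAQ gained calls at −1.76 with DESeq2 and −1.60 without a filter (−2.04 to −1.46 with 1 library left out), and WT at −1.94, −1.80 and, with the compared groups alone, −1.90 (−1.99 to −1.82).

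For disomes, AAQ over WT pulldown lost its call at 0.49 with DESeq2, 0.52 without a filter and 0.19 with total counts (0.22 to 0.76 with 1 library left out). WT over naive pulldown lost it at 3.86 with DESeq2 and 3.16 with total counts, and AAQ over naive pulldown at 3.36 with total counts. Total counts gave −0.037 for AAQ minus WT enrichment (−0.16 to 0.36), −0.0083 for AAQ over WT pulldown in disomes relative to monosomes (−0.21 to 0.37), 0.038 for the double knockdown in disomes (−0.18 to 0.085) and 0.028 for it in RNA-seq; ranges are with 1 library left out. Such ranges were −0.068 to 0.15 for ABCE1 in disomes, −0.022 to 0.077 for ASCC3 in RNA-seq, −0.11 to 0.025 for 4EHP in translational efficiency and −0.31 to −0.21 for the double knockdown in monosomes. ASCC3 in monosomes gained a call at −0.25 without a filter. Total counts moved the called features from 458 higher and 305 lower to 289 and 487 for AAQ over naive monosome input, and from 2248 and 2086 to 1124 and 4289 for AAQ over WT monosome pulldown.

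With TMM and representative features, mean ETF1 levels in CPM were, for AAQ, WT and naive cells, 998, 899 and 179 in monosome inputs, 4772, 3803 and 2835 in monosome pulldowns, and 267, 202 and 34.7 in disome inputs and 734, 509 and 30.3 in disome pulldowns, which turns round the direction of naive disome pulldown over input. For the double, ASCC3 and 4EHP knockdowns and control they were 182, 188, 199.8 and 217 in monosomes (ABCE1 204), 132, 152, 115 and 138 in disomes (ABCE1 141), and 294, 313, 289.8 and 307 in RNA-seq.

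With the replicate number as a block, monosome calls were gained for WT over naive input (2.32), AAQ over WT pulldown (0.31), AAQ over naive pulldown (0.74) and minus naive enrichment in AAQ (−1.74) and WT (−1.89), and no other call changed. Correlations of the deviations of same-numbered libraries were −0.083 to 0.055 in the tagged arm, 0.039 to 0.231 in knockdown monosomes (6 of 10 pairs of groups over 0.1), 0.019 to 0.110 in knockdown disomes (1 of 3) and −0.432 to 0.721 in RNA-seq (1 of 6). In no assay did every pair exceed 0.1, so the numbers were not taken to pair the libraries, although knockdown monosomes deviated together in part. The share outside the 405-codon transcript differed by −3.91 points with naive libraries, chosen after seeing the data, and by −3.45 to −2.53 in monosomes and −4.10 to −2.21 in disomes with 1 library left out. The alternatives planned for the termination and rescue gene list were not run. Disome depth limits what could be detected, above all in the naive pulldown with 1 ETF1 count.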
